A study of Drosophila melanogaster with 48 samples.

Results

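These data show a group of 100 genes whose transcripts peaked in the prepupal wing of Drosophila melanogaster, among 11982 named genes measured on the array. The genes were chosen from 12 arrays of the eGFP line at 19 °C. For each gene, the higher of the larval and pupal mean was subtracted from the prepupal mean, and the 100 genes with the largest difference were taken. That difference is called the prepupal excess below. All levels are log2 values, on which 1 unit is a 2-fold change. Symbols starting with Cpr, Twdl, Osi, Vajk, Lcp, Ccp84, Edg or Obp, mostly structural cuticle families, were left out, which left 11804 genes. In that ranking, 17 genes of the left-out families stood above the last gene taken. Of the 100 genes, 66 are known only by a CG number and 34 have another name.

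The study asked which genes respond to Ultrabithorax (Ubx), the Hox protein that makes a haltere out of a wing, in wing tissue at 3 stages. The Ubx line was w; UAS-UbxIa / + ; nabGal4NP3537 / Tub-Gal80ts, and the control line was w; UAS-eGFP / + ; nabGal4NP3537 / Tub-Gal80ts. Both lines therefore carried the same Gal4 driver in nab and the same temperature-sensitive Gal80 repressor, which keeps Gal4 off at 19 °C and lets it act at 29 °C. Each line was sampled at each stage and temperature with 4 biological replicates, which makes 12 groups and 48 arrays. The 29 °C animals were moved from 19 °C for 16 h. Larval wing discs came from third-instar larvae that had left the food, with gut colour as the measure of age. The prepupal wings were 6 h past puparium formation at 29 °C and 12.5 h past it at 19 °C, and the pupal wings 16 h and 33.5 h past it. A sample pooled about 15 to 20 animals. The driver acts where nab is expressed, while whole discs and wings were measured, so each value averages over tissue with and without the transgene product. In such bulk samples, fewer cells of a type and less RNA per cell cannot be told apart. The Ubx transcript itself was not analysed here, so repression at 19 °C is known from the design alone.

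The prepupal stage lies between the large pulse of the steroid hormone ecdysone that starts metamorphosis and the smaller pulse that ends it. Ecdysone first induces early genes, then the nuclear receptor gene ftz-f1 is expressed as the hormone falls, and ftz-f1 makes tissues competent for the next pulse. During this interval the wing epithelium everts, flattens and secretes the pupal cuticle, an apical matrix of chitin, chitin-binding proteins, zona pellucida (ZP) domain proteins and lipids.

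Replicate arrays correlated at 0.995 or more across probe sets. Of 12 measured genes of wing identity, including vg, nub, ap and salm, 11 or 12 had a mean above the array median of 4.52 in every group. The summed linear level of 12 haemocyte markers was 3007 to 3839 on the prepupal arrays at 29 °C and 3585 to 4235 on the pupal ones, and that of 6 fat body markers was 762 to 1376 and 12106 to 22530. The muscle markers summed to 99 to 111 on the prepupal arrays at 29 °C, against 608 to 747 on the larval ones. In eGFP at 29 °C, 6 of the 12 haemocyte markers and 2 of 7 markers of neurons and glia were higher in prepupa than in both other stages by limma, as were 20.3% of all probe sets, and 0 of the 6 fat body, 7 muscle, 3 tracheal and 9 salivary gland markers were, also at an unadjusted p under 0.05. The part of other cell types in the stage differences was not tested. The array gives no detection calls, so a level near or under the median is not shown to lie above background. Levels of different probe sets are not compared, because each has its own response.

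In the 12 arrays that chose them, the 100 genes had a prepupal excess of 4.91 to 9.51, with a median of 5.92. These values are the choice itself and carry no test. The 10 genes at the top were CG12164 (9.51), Jhbp4 (9.10), CG9083 (9.10), dyl (9.07), CG17127 (8.80), Cyp303a1 (8.72), CG32645 (8.58), CG34115 (8.08), CG5756 (7.90) and Lip1 (7.75). Jhbp4 belongs to a family of haemolymph juvenile hormone binding proteins, dyl encodes a ZP-domain protein of the apical surface, Cyp303a1 a cytochrome P450 and Lip1 a lipase. The last genes inside the limit were Peritrophin-A (4.92), ftz-f1 (4.92) and apn (4.91), and the first outside were CG17707 (4.84), CG14960 (4.81) and CG7888 (4.79).

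The peak was then examined in the 3 conditions that the choice did not use. Each of the 100 genes was higher in prepupa than in both larva and pupa in the Ubx line at 29 °C, in the eGFP line at 29 °C and in the Ubx line at 19 °C (limma, adjusted p under 0.05 over all 18769 probe sets). The share of all probe sets called in this way was 20.1% in Ubx at 29 °C, 20.3% in eGFP at 29 °C and 21.7% in Ubx at 19 °C. Against larva alone, 29.1%, 29.0% and 30.9% of all probe sets were higher in prepupa in these conditions, and against pupa alone 32.0%, 32.3% and 32.5%. The median prepupa minus larva difference of the members was 5.99, 6.03 and 6.20 in these conditions, and the median prepupa minus pupa difference was 5.77, 5.69 and 6.11. Over all probe sets these medians lay between -0.04 and 0.01. CG12164, first in the ranking, measured 14.00, 14.02, 14.00 and 14.02 in Ubx and 14.00, 14.00, 13.99 and 14.00 in eGFP in prepupa at 29 °C. Its larval values were 3.46 to 3.67 in Ubx and 3.59 to 3.74 in eGFP, and its pupal values 4.27 to 4.42 in Ubx and 3.99 to 4.25 in eGFP, so no other stage came near the prepupal arrays. The 4 prepupal arrays lay above the 8 larval and pupal arrays for 99 members in Ubx at 29 °C (17.5% of all probe sets), for 100 in eGFP at 29 °C (18.0%) and for 100 in Ubx at 19 °C (19.0%). The exception was igl in Ubx at 29 °C. The Ubx arrays at 19 °C appear to have been normalised by the authors together with the eGFP arrays that chose the genes. Each stage and temperature likewise appears to have been normalised as a set of its own. For comparisons of stages, the set and the stage therefore cannot be told apart.

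Array by array, the median level of the 100 genes was 4.24 to 4.49 in larval discs, 10.66 to 11.21 in prepupal wings and 4.42 to 4.72 in pupal wings. The prepupal medians were 10.66 to 10.94 in Ubx and 10.71 to 10.96 in eGFP at 29 °C, which overlapped, and 11.02 to 11.09 in Ubx and 11.15 to 11.21 in eGFP at 19 °C. In 40 members both the larval and the pupal mean lay under the array median in each line at 29 °C, so their differences from prepupa may be understated by the floor of the array.

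**Figure D1:**
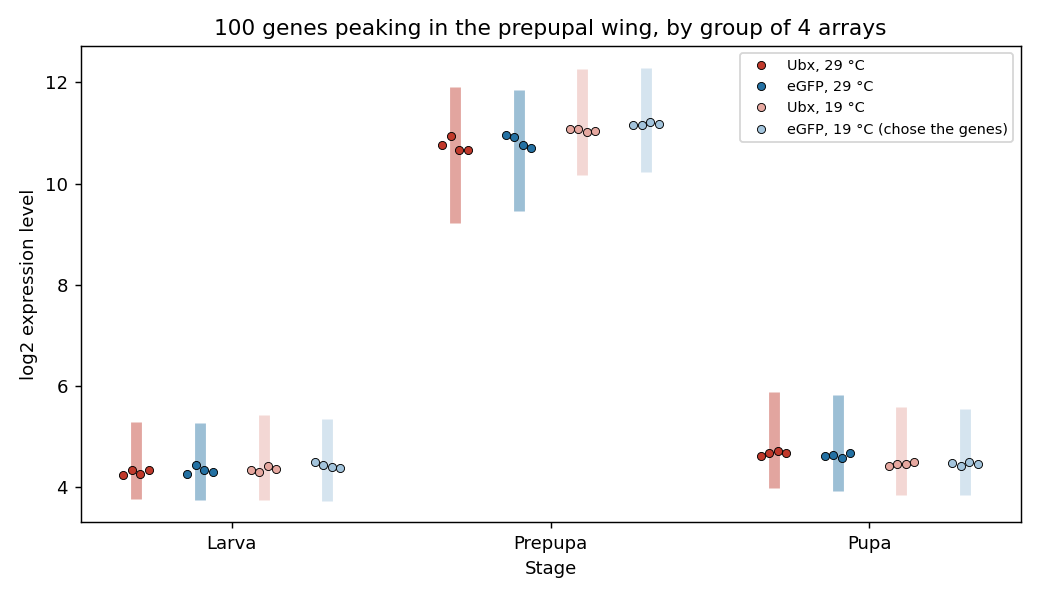
Median log2 level of the 100 genes on each array (points, 4 per group), with the quartile range of the members' group means (bars), for 4 groups at each of larva, prepupa and pupa. The prepupal points lie between 10.66 and 11.21, and those of larva and pupa between 4.24 and 4.72.

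The regulator among the members was ftz-f1. In the Ubx line at 29 °C it measured 3.91, 3.88, 3.88 and 4.39 in larval discs, 11.53, 11.65, 11.48 and 11.39 in prepupal wings and 5.14, 5.78, 5.50 and 5.60 in pupal wings. In the eGFP line at 29 °C it measured 4.02, 4.46, 4.09 and 3.92 in larva, 11.58, 11.41, 11.53 and 11.37 in prepupa and 5.63, 5.65, 6.05 and 6.07 in pupa. The prepupal arrays stood apart from all others in both lines, and the lines overlapped in prepupa. The prepupal mean exceeded the larval one by 7.35 (SE 0.20, limma adjusted p = 8.59e-32) and the pupal one by 5.62 (SE 0.20, adjusted p = 2.29e-27) in eGFP. A second probe set of ftz-f1 was 3.21 higher in prepupa than in larva and 0.04 higher than in pupa, so the fall after prepupa rests on the first. Other genes of the ecdysone response were measured through a list of 30 genes. Of these, 10 were higher and 6 lower in prepupa than in both other stages in eGFP at 29 °C, where 20.3% and 22.7% of all probe sets were. The ABC transporter gene E23 had an excess of 4.27, Cyp18a1, which inactivates ecdysone, 2.04, the early gene br 1.80 and dib, an enzyme of ecdysone synthesis, 1.68. At the other end of the list, Kr-h1, a juvenile hormone response gene, had -7.08, Eip93F -6.05 and the nuclear receptor gene Eip78C -3.17. Of these, Eip78C was lower in prepupa than in both other stages.

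Among the other transcription factors, slbo, a C/EBP protein, averaged 11.23 ± 0.19 in Ubx and 10.93 ± 0.16 in eGFP in prepupa at 29 °C, against larval means of 3.56 and 3.63 and pupal means of 4.00 and 4.24 (SD, n = 4). The bHLH gene tx averaged 10.30 ± 0.27 in Ubx and 10.83 ± 0.26 in eGFP in prepupa. Pdp1, a bZIP factor, had the smallest prepupal excess of these factors at 29 °C, 3.03 in Ubx and 2.39 in eGFP. These 3 genes, and others given below for their role alone, were picked after their values were seen, except Pdp1.

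Several members encode parts of the apical matrix or act on chitin. The ZP-domain gene dyl measured 3.48, 3.53, 3.23 and 3.47 in larva, 11.74, 11.98, 11.75 and 11.78 in prepupa and 3.70, 3.92, 3.91 and 3.93 in pupa in the Ubx line at 29 °C. In the eGFP line it measured 3.39, 3.41, 3.40 and 3.52 in larva, 12.16, 11.89, 11.77 and 11.76 in prepupa and 3.91, 3.83, 3.82 and 3.87 in pupa. The lines overlapped at each stage. The 2 flanking stages were near the floor of the array in both lines, and the prepupal excess was 7.95 in Ubx and 8.04 in eGFP. Its relative dy, another ZP-domain gene, averaged 11.14 in Ubx and 11.69 in eGFP in prepupa, against larval means of 6.21 and 6.31 and pupal means of 5.14 and 5.63. Of 16 listed genes for ZP-domain proteins and apical matrix, 4 were higher and 4 lower in prepupa than in both other stages in eGFP at 29 °C. Besides dyl the higher ones were dpy, a giant matrix protein that anchors wing epithelium to cuticle (excess 1.82), qsm (0.23) and zye (0.23). The zye means in eGFP at 29 °C, 3.53, 3.855 and 3.63 in larva, prepupa and pupa, lay under the array median. In eGFP at 19 °C the prepupal means of qsm (11.15) and zye (3.511) lay below the pupal ones (11.78 and 3.665), given with no test. Those lower than both stages were neo (-7.55), tyn (-3.39), mwh (-2.28) and trn (-0.91), and Mur89F, at -8.71, was lower than in pupa alone. Of these, mwh and trn were on the list although they encode neither a ZP-domain nor an apical matrix protein. For tyn the prepupal mean in eGFP at 19 °C (10.05) lay above the larval one (7.84), given with no test.

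Of 31 listed chitin genes, 16 were higher and 4 lower in prepupa than in both other stages in eGFP at 29 °C. The list's median excess was 0.72, against -0.17 for all named genes. Members were obst-E and Peritrophin-A, which encode chitin-binding proteins, and exp, which is needed for chitin organisation in the trachea. Their excess at 29 °C was 6.66, 5.81 and 5.72 in Ubx and 6.54, 6.28 and 6.06 in eGFP. The listed genes with the next largest excess were the chitinase gene Cht6 (4.52) and the chitin deacetylase genes Cda5 (4.15) and verm (3.93), followed by Gasp (3.62), another chitin-binding protein. The listed genes lower than both stages were Idgf4 (-4.81), the chitinase genes Cht5 (-4.38) and Cht10 (-1.63), and Gfat2 (-1.04). For Cht10 the prepupal mean in eGFP at 19 °C (11.21) lay above the pupal one (10.97), given with no test. ChLD3, a further member with chitin-binding and deacetylase domains, exceeded its larval mean by 6.62 (SE 0.10, adjusted p = 1.03e-41).

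The lipid barrier of the cuticle was represented by snsl, which acts with the ABC transporter snu, and by LpR1, a lipophorin receptor. In prepupa at 29 °C snsl averaged 10.68 ± 0.08 in Ubx and 10.91 ± 0.01 in eGFP (SD, n = 4), against larval means of 3.48 and 3.42 and pupal means of 5.97 and 5.78. The gene snu, outside the 100, had an excess of 3.75 in eGFP. Of 19 listed lipid and wax genes, 9 were higher and 2 lower in prepupa than in both other stages, among them Npc2b (4.10), wat (1.23) and app (1.07) on the higher side and bond (-1.58) and FASN2 (-0.38) on the lower. In eGFP at 19 °C the prepupal mean of wat (4.395) lay below its larval mean (5.03), given with no test. The FASN2 means in eGFP at 29 °C, 4.115, 3.74 and 3.95 in larva, prepupa and pupa, lay under the array median.

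Pigment and sclerotisation had 1 member, yellow-h, of the yellow family. Its excess was 4.73 in Ubx and 3.86 in eGFP at 29 °C. Of 17 listed genes, 10 were higher in prepupa than in both other stages and 1 was lower. The largest excess among them after yellow-h was that of yellow-d (3.58), Pu (3.48), which makes the cofactor of tyrosine hydroxylase, amd (2.25) and yellow-b (1.97). In eGFP at 19 °C the prepupal means of Pu (5.57) and yellow-b (7.11) lay below their larval means (6.94 and 7.38), given with no test. Among proteases and inhibitors, 5 of 22 listed genes were higher and 10 lower. The member flz, a serine protease gene, had an excess of 2.84 in Ubx and 2.89 in eGFP, and the serpin genes Spn88Ea, Spn28Dc, Spn77Ba and Spn42Da had 2.29, 1.50, 1.12 and 1.01. In eGFP at 19 °C the prepupal mean of Spn77Ba (10.43) lay below its larval (10.52) and pupal (10.61) means, given with no test. The lowest were Ance (-6.65), AdamTS-A (-5.63) and psh (-4.65).

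Further members with enzyme roles were picked after their values were seen, except Cyp303a1, and no list was tested for them. Cyp303a1 averaged 12.64 ± 0.04 in Ubx and 12.62 ± 0.02 in eGFP in prepupa at 29 °C, against 3.39 and 3.40 in larva and 3.63 and 3.66 in pupa (SD, n = 4). Cyp301a1, a P450 gene of cuticle formation, had a smaller difference from larva, 4.17 in Ubx and 4.42 in eGFP. The sulfotransferase genes St1, St3 and St4 exceeded their larval means by 5.34, 7.70 and 3.95 in eGFP, and Ugt50B3, a glycosyltransferase gene, by 4.41. The gene qless, for coenzyme Q synthesis, differed by 5.42, and Pgant8, which starts O-linked glycans, by 5.15.

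No member came from the lists of cytoskeleton and adhesion, septate junction, wing identity or cell cycle genes. Of 22 cytoskeletal and adhesion genes, 8 were higher and 6 lower in prepupa than in both other stages in eGFP at 29 °C. The microtubule-associated gene tau had the largest excess there (5.10) and stood 5 places outside the limit of the choice at 19 °C, with 4.77. It was followed by by (3.07), a tensin gene, by f (1.85), an actin-bundling gene, and by kst (1.49), a spectrin gene. Of 22 septate junction genes, 2 were higher (vari, 0.68, and mesh, 0.25) and 16 lower. The mesh means in eGFP at 29 °C, 3.70, 4.175 and 3.93 in larva, prepupa and pupa, lay under the array median. For mesh the prepupal mean in eGFP at 19 °C (3.904) lay below the pupal one (4.004), given with no test. Of 12 wing identity genes, 2 were higher, dve (0.57) and rn (0.31), and 4 lower. Of 13 cell cycle genes, 6 were lower by limma and 0 were higher, also at an unadjusted p under 0.05. The median excess of the lists in eGFP at 29 °C was 0.50 for pigment, 0.03 for lipid, -0.33 for ecdysone, -0.35 for ZP-domain and apical matrix, -0.49 for cytoskeleton, -0.56 for protease, -0.63 for wing identity, -0.67 for cell cycle and -0.78 for septate junction genes.

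The height of the prepupal level differed between the temperatures for part of the members. Relative to 19 °C, 29 members in Ubx and 28 in eGFP were at least 1 unit lower in prepupal wings at 29 °C, 26 of them in both lines, while 10 in Ubx and 6 in eGFP were at least 1 unit higher, 6 of them in both. The remaining 61 and 66 lay within 1 unit. The share of all probe sets that differed by 1 unit or more was not counted, so these counts are not shown to be particular to the members. The eGFP arrays at 19 °C chose the genes for high prepupal values, so these differences are given with no test, and temperature, hours after puparium formation and array set cannot be told apart. The gene with the smallest prepupal excess in eGFP at 29 °C was ect. It measured 9.54, 9.79, 9.59 and 9.66 in Ubx and 10.14, 10.20, 9.51 and 9.19 in eGFP in prepupa at 29 °C, against 12.87, 12.81, 12.69 and 12.84 in Ubx and 12.75, 12.89, 12.75 and 12.84 in eGFP at 19 °C. No 29 °C array reached any 19 °C array. With pupal means of 7.99 in Ubx and 8.15 in eGFP at 29 °C, its prepupal excess there was 1.66 and 1.61.

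The 6 members with the smallest excess in eGFP at 29 °C were ect, CG13856, CG5921, Pdp1, igl and spz4, a member of the spätzle family of secreted ligands. The excess of the 5 after ect was 1.83, 2.02, 3.03, 0.34 and 2.44 in Ubx and 1.74, 2.12, 2.39, 2.46 and 2.51 in eGFP. The lowest temperature differences in eGFP belonged to CG3108, CG13856, ect, CG42331 and flz, with -4.45, -3.84, -3.16, -2.22 and -3.57 in Ubx and -3.46, -3.36, -3.05, -2.96 and -2.92 in eGFP. At the other end, CG14327 was 2.88 higher in Ubx and 2.69 higher in eGFP, and apn, yellow-h and obst-E were 1.17, 1.66 and 1.34 higher in Ubx and 1.43, 1.36 and 1.23 higher in eGFP. Between these, ftz-f1 differed from its 19 °C level by -0.01 in Ubx and -0.07 in eGFP and St3 by 0.08 and 0.00, whereas St1, a neighbour of St3 on chromosome arm 2R, differed by -2.27 in Ubx and -2.06 in eGFP.

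**Figure D2:**
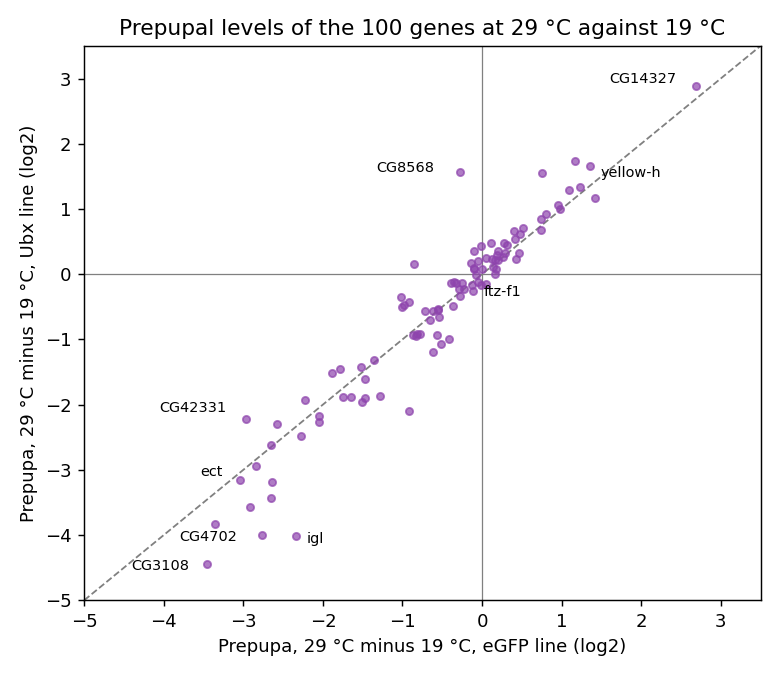
Prepupal level at 29 °C minus that at 19 °C (log2) for each of the 100 genes, in the Ubx line (vertical) against the eGFP line (horizontal), with equality dashed. Most points follow the diagonal, from CG3108 at -4.45 and -3.46 to CG14327 at 2.88 and 2.69, while CG8568 lies above it and igl below.

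The 26 members that were lower at 29 °C in both lines also had a larger SD between replicate prepupal arrays at 29 °C. Their median SD was 0.25 in Ubx and 0.39 in eGFP at 29 °C, against 0.10 and 0.09 for the other 74 members. At 19 °C the medians were 0.14 in Ubx and 0.11 in eGFP, against 0.08 and 0.08. The 26 were also dimmer in prepupa at 29 °C, with median levels of 8.57 in Ubx and 8.73 in eGFP. Those of the other 74 were 11.43 and 11.47. The part of signal level in the SD was not tested. CG3108 had the widest spread, with an SD of 1.31 in eGFP at 29 °C, followed among the genes named here by CG4702 (0.88), spz4 (0.77), CG13856 (0.75) and flz (0.73). In eGFP prepupae at 29 °C CG3108 read 7.74 and 8.07 in replicates 1 and 2, against 6.46 and 5.19 in 3 and 4. CG4702 read 10.81 and 11.18, against 9.71 and 9.34. Replicates 1 and 2 were also the higher ones for spz4, flz, slif and dy, but not for CG13856. Ubx replicate 2 was the highest Ubx array for CG3108, CG4702, spz4, flz, slif and dy. The values of these genes thus moved with the same arrays and are not independent.

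Across the 100 members the prepupal excess at 29 °C and 19 °C in eGFP had a Pearson correlation of 0.67 and a Spearman correlation of 0.54, given as a description since the 19 °C values chose the genes and their range is cut at 4.91. Between the lines it was 0.94 and 0.95 at 29 °C, over members measured in shared array sets. Repeating the same rule in each unused condition returned 73 of the 100 members in Ubx at 29 °C, 72 in eGFP at 29 °C and 92 in Ubx at 19 °C. Within the top 200 of each ranking lay 88, 91 and 99.

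**Figure D3:**
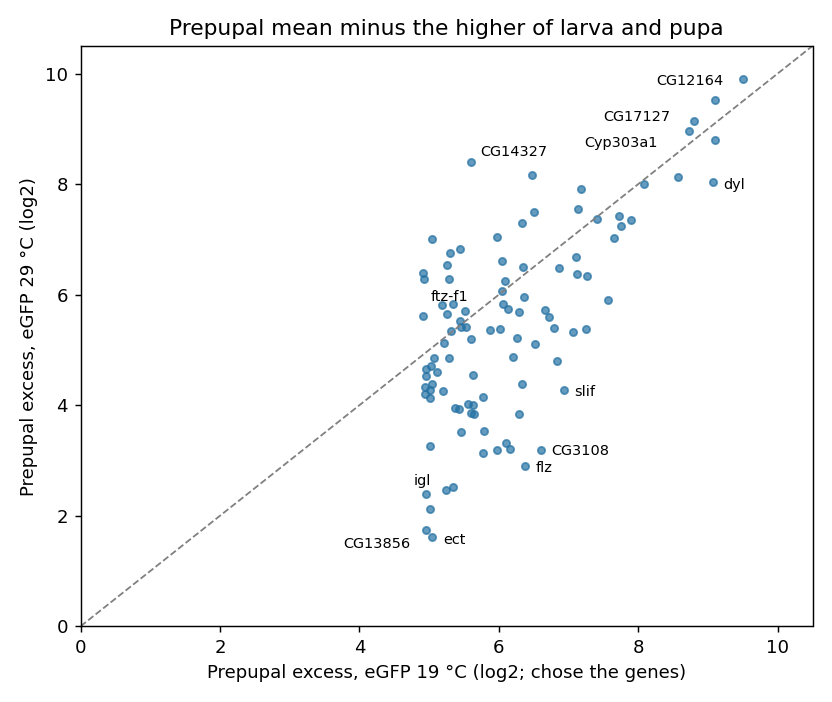
Prepupal excess (prepupal mean minus the higher of the larval and pupal mean, log2) of the 100 genes in eGFP at 29 °C (vertical) against eGFP at 19 °C (horizontal), which chose them, with equality dashed. All points lie above 1.6 at 29 °C, and ect and CG13856 are lowest with 1.61 and 1.74.

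The study's own contrast, Ubx against eGFP at 29 °C, changed some members while leaving the median of the group near 0. In prepupa 14 members were higher and 20 lower in Ubx, where 7.05% and 6.79% of all probe sets were, and the 34 called either way compare with 13.8%. With only the groups compared in the fit, 12 were lower. Among those with a prepupal mean above 8 at 29 °C, a limit chosen after the data were seen, 29 of 90 members and 30.7% of all such probe sets were called. The members' share is thus near that background. The median difference of the members was -0.04, and 4 rose and 9 fell by at least 1.5-fold (0.980% and 1.28% of all probe sets). In larva 5 members were higher and 2 lower (1.49% and 1.58%), and the 7 called either way compare with 3.06% of all probe sets. These 2 counts moved with single arrays: 3 were higher without Ubx replicate 1 or eGFP replicate 1 or 3, 4 were lower without Ubx replicate 4 or eGFP replicate 1, and 1 was lower without eGFP replicate 3. Of these, 1 rose and 1 fell by at least 1.5-fold (0.293% and 0.416%). In pupa 13 were higher and 9 lower (3.88% and 4.54%), and the 22 called either way compare with 8.42%. Of these, 7 rose and 4 fell by at least 1.5-fold (0.868% and 0.986%). Leaving out single arrays gave 10 to 15 higher and 6 to 8 lower in pupa. For larva and pupa no share among bright probe sets was taken, so the part of signal level in these counts was not tested.

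The member with the largest rise was CG8568. In prepupa at 29 °C it measured 10.51, 10.71, 10.15 and 10.23 in Ubx, against 8.65, 8.28, 8.23 and 8.26 in eGFP. All Ubx arrays lay above all eGFP arrays, by 2.05 on average (SE 0.12, adjusted p = 4.65e-17). It was also higher in Ubx in pupa, with 4.31, 4.90, 5.06 and 4.45 against 3.61, 3.42, 3.75 and 3.78 (difference 1.04, SE 0.12, adjusted p = 2.32e-08), and in larva by 0.45 (adjusted p = 0.0289), a call that was lost on the deposited values (adjusted p = 0.1), on median-centred arrays (0.113) and without replicate 1 or 2 of Ubx or 1, 3 or 4 of eGFP (0.0687 to 0.157). At 19 °C the prepupal means were 8.84 in Ubx and 8.64 in eGFP. The other rises of at least 1.5-fold in prepupa were CG32816 (0.82), CG42331 (0.78) and CG11382 (0.66), with adjusted p of 1.93e-09, 3.65e-05 and 3.15e-07. The rise of CG42331 was not called when only its own groups entered the fit (adjusted p = 0.0524). The second, dimmer probe set of CG42331 was not called in prepupa either (0.06, limma adjusted p = 0.842).

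The falls in prepupa were led by CG43103 and igl. CG43103 measured 5.58, 5.65, 5.55 and 5.88 in Ubx, against 8.94, 8.71, 8.77 and 8.93 in eGFP at 29 °C (difference -3.17, SE 0.14, adjusted p = 6.89e-22). The lines were also far apart at 19 °C, with 6.36, 7.20, 7.21 and 7.14 in Ubx against 10.22, 10.10, 10.24 and 10.20 in eGFP. The mean difference there, given with no test, was -3.21. In Ubx at 29 °C CG43103 was 0.74 higher in prepupa than in pupa (adjusted p = 9.87e-06), while in eGFP the difference was 4.15.

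The gene igl, which encodes a calmodulin-binding protein, measured 4.03, 4.56, 3.70 and 4.13 in Ubx and 6.72, 6.32, 6.52 and 6.30 in eGFP in prepupa at 29 °C. The groups did not overlap and differed by -2.36 (SE 0.12, adjusted p = 7.56e-20). At 19 °C it measured 7.71, 8.14, 8.28 and 8.35 in Ubx against 8.80, 8.72, 8.95 and 8.73 in eGFP, a mean difference of -0.68. Pupal values at 29 °C were 3.75, 3.68, 3.92 and 3.72 in Ubx and 3.88, 3.92, 4.11 and 4.11 in eGFP, so in Ubx the prepupal arrays overlapped the pupal ones and the prepupal mean was 0.34 above the pupal mean (adjusted p = 0.0117), a call lost without replicate 2 of the Ubx prepupae (0.19, adjusted p = 0.149) or with only its own groups in the fit (0.0668). Its prepupal mean in Ubx, 4.11, was the only one of the 100 under the array median.

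The lipase gene Lip1 measured 10.32, 10.74, 10.17 and 9.97 in Ubx, against 11.74, 11.36, 11.46 and 11.34 in eGFP (difference -1.17, SE 0.10, adjusted p = 9.97e-13). At 19 °C both lines averaged 12.39 and 12.40. CG4702 fell by 1.06 (SE 0.26, adjusted p = 0.00245), slif, an amino acid transporter gene, by 0.82 (SE 0.13, adjusted p = 1.19e-05), and Ir21a, a receptor gene of cool sensing, by 0.78 (SE 0.15, adjusted p = 8.58e-05). A second probe set of Ir21a fell by 1.32 (adjusted p = 4.43e-08). With only their own groups in the fit these 3 were not called, at adjusted p of 0.143, 0.0517 and 0.0759. CG5756 fell by 0.71 (SE 0.08, adjusted p = 5.41e-09). The fall of flz by 0.63 (SE 0.18, adjusted p = 0.0113) was not called with only its own groups (0.302), nor without replicate 3 (0.0536) or 4 (0.055) of Ubx or replicate 1 (0.0867) or 2 (0.165) of eGFP, and without that last array it was -0.36. For CG4702, slif and flz the eGFP replicates 1 and 2 lay above replicates 3 and 4, so these falls are not independent of each other.

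Of the matrix and chitin members, dy fell by 0.55 (SE 0.10, adjusted p = 2.52e-05) and Peritrophin-A by 0.22 (adjusted p = 0.0394) in Ubx prepupae, whereas dyl (-0.08), exp (-0.02) and obst-E (0.04) were not called. A second probe set of exp, which was also higher in prepupa than in both other stages, fell by 0.36 in Ubx prepupae (adjusted p = 0.015), so the 2 probe sets disagree, and that of obst-E had -0.03 (adjusted p = 0.938). LpR1 fell by 0.23 (adjusted p = 0.0437), and its second probe set by 0.47 (adjusted p = 0.00847). The calls of Peritrophin-A and of the first LpR1 probe set were lost when most single arrays were left out, with adjusted p up to 0.128 and 0.142, and that of LpR1 also with the replicate block (0.0504). Of the factors, ftz-f1 differed by 0.04 (adjusted p = 0.960), slbo rose by 0.30 (adjusted p = 0.00229) and tx fell by 0.53 (adjusted p = 0.00361), the last 2 not called with only their own groups in the fit (0.0964 and 0.0524). Among the lists, 3 of 30 ecdysone genes were higher and 4 lower in Ubx prepupae, 3 and 2 of 31 chitin genes, 0 and 3 of 16 genes on the ZP-domain and apical matrix list, 0 and 4 of 17 pigment genes and 2 and 4 of 19 lipid genes. The 3 lower genes on the ZP-domain and apical matrix list were qsm (-0.54), pot (-0.20) and trn (-0.39), the last of which encodes neither kind of protein. For proteases and inhibitors the counts were 4 and 2 of 22, for cytoskeleton and adhesion 5 and 5 of 22, for septate junction 3 and 1 of 22 and for cell cycle 0 and 4 of 13. Of 12 wing identity genes, 9 were lower, led by Antp (-1.46) and kn (-1.18), and 1 was higher, dve (0.63). At an unadjusted p under 0.05, 1 ZP-domain or apical matrix gene, 2 pigment genes and 0 cell cycle genes were higher by limma. Beside these prepupal differences, 3 of 12 haemocyte markers were higher by limma (7 at an unadjusted p under 0.05) and 0 were lower at either threshold in Ubx, their summed linear level being 3490 to 3839 in Ubx and 3007 to 3256 in eGFP. Of 3 tracheal markers 1 was lower, vvl, and their sum was 338 to 399 in Ubx and 637 to 742 in eGFP. Only 1 of these 3 had a mean above the array median in either line, so the sum rests mainly on 1 gene. Of 6 fat body markers 2 were lower, Fbp2 (-1.51, adjusted p = 0.0225) and FASN1 (-0.32, adjusted p = 0.00245), which is also on the lipid list, and their sum was 770 to 1376 in Ubx and 762 to 1069 in eGFP. The part of these markers in the members' differences was not tested.

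**Figure D4:**
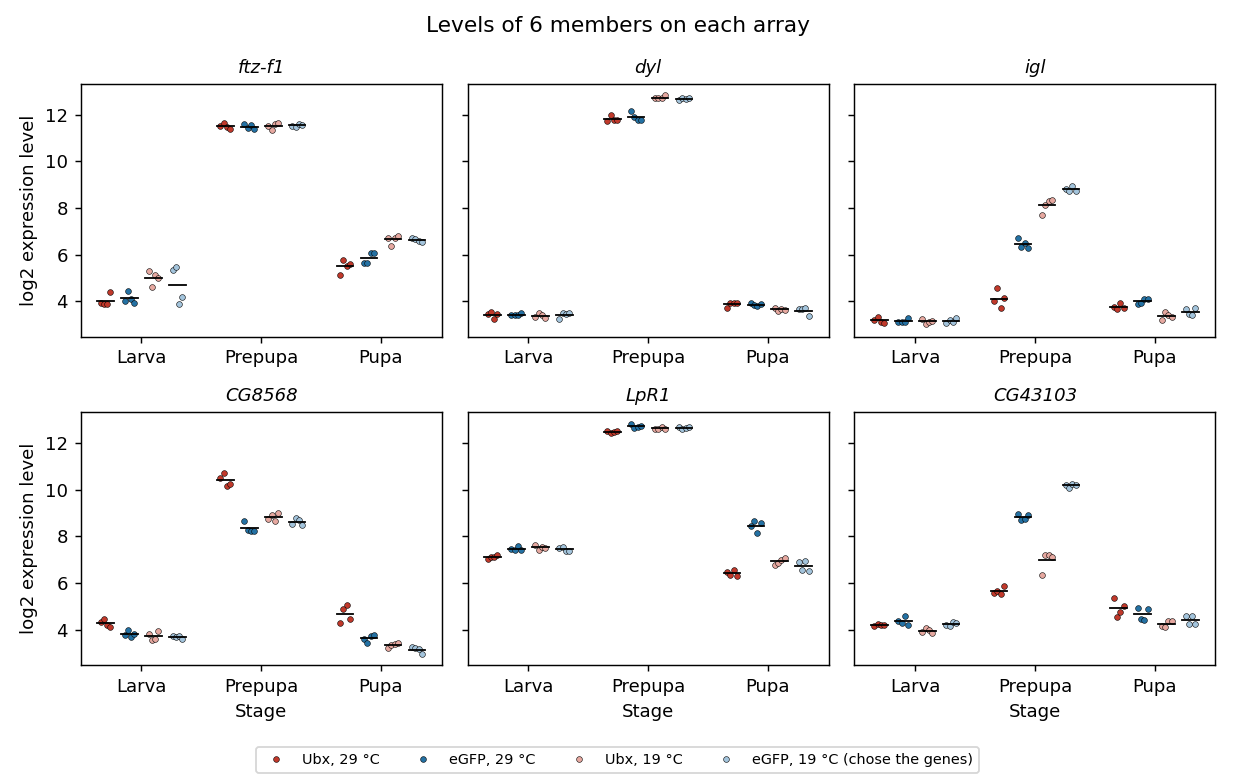
Log2 level on each array (points) and group mean (lines) of ftz-f1, dyl, igl, CG8568, LpR1 and CG43103 at larva, prepupa and pupa in 4 groups per stage, in the order Ubx 29 °C, eGFP 29 °C, Ubx 19 °C and eGFP 19 °C. In prepupa at 29 °C, CG8568 is higher in Ubx, igl and CG43103 are lower, and ftz-f1 and dyl overlap between the lines.

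In pupa the largest difference was that of LpR1. It measured 6.47, 6.36, 6.55 and 6.32 in Ubx at 29 °C, against 8.44, 8.67, 8.15 and 8.57 in eGFP (difference -2.03, SE 0.08, adjusted p = 2.34e-23). At 19 °C the pupal means were 6.93 in Ubx and 6.74 in eGFP, so the eGFP pupae at 29 °C stood apart from the other 3 groups. In prepupa it measured 12.42 to 12.53 in Ubx and 12.64 to 12.81 in eGFP. A second, dimmer probe set of LpR1 was not called in pupa (-0.22, adjusted p = 0.401). CG11380 measured 4.78, 4.66, 4.78 and 4.70 in Ubx pupae, against 5.85, 6.34, 5.72 and 5.81 in eGFP pupae (difference -1.20, SE 0.12, adjusted p = 3.88e-10). The remaining falls of at least 1.5-fold were yellow-h (-1.03, adjusted p = 1.53e-08) and CG10211 (-0.62, adjusted p = 0.000816).

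The largest rise in pupa was that of CG6055, which measured 9.55, 9.42, 9.63 and 9.67 in Ubx, against 8.30, 7.92, 8.19 and 8.09 in eGFP (difference 1.44, SE 0.07, adjusted p = 7.29e-20). It was also higher in Ubx larvae, with 6.37, 6.60, 6.38 and 6.42 against 6.09, 5.90, 5.99 and 5.99 (difference 0.45, adjusted p = 2.34e-05). In pupa at 19 °C its means were 8.75 in Ubx and 8.02 in eGFP, a difference of 0.73, given with no test. CG13847 rose by 0.89 (adjusted p = 2.03e-12) and GrlHz, a gustatory-receptor-like gene, by 0.81 (adjusted p = 1.41e-06) in pupa. At 19 °C the pupal lines differed by -0.04 for CG13847 and by 0.50 for GrlHz, whose arrays read 6.61, 6.24, 6.57 and 6.23 in Ubx against 5.71, 5.98, 6.02 and 5.93 in eGFP and did not overlap. GrlHz was also the one member that rose by at least 1.5-fold in larva (0.60, adjusted p = 0.000616). Ptr, a gene related to the Hedgehog receptor gene patched, fell by 0.72 in larva (SE 0.12, adjusted p = 2.72e-05) and rose by 0.80 in pupa (adjusted p = 1.43e-06). At 19 °C its differences had the same signs, -0.39 in larva and 0.42 in pupa.

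**Figure D5:**
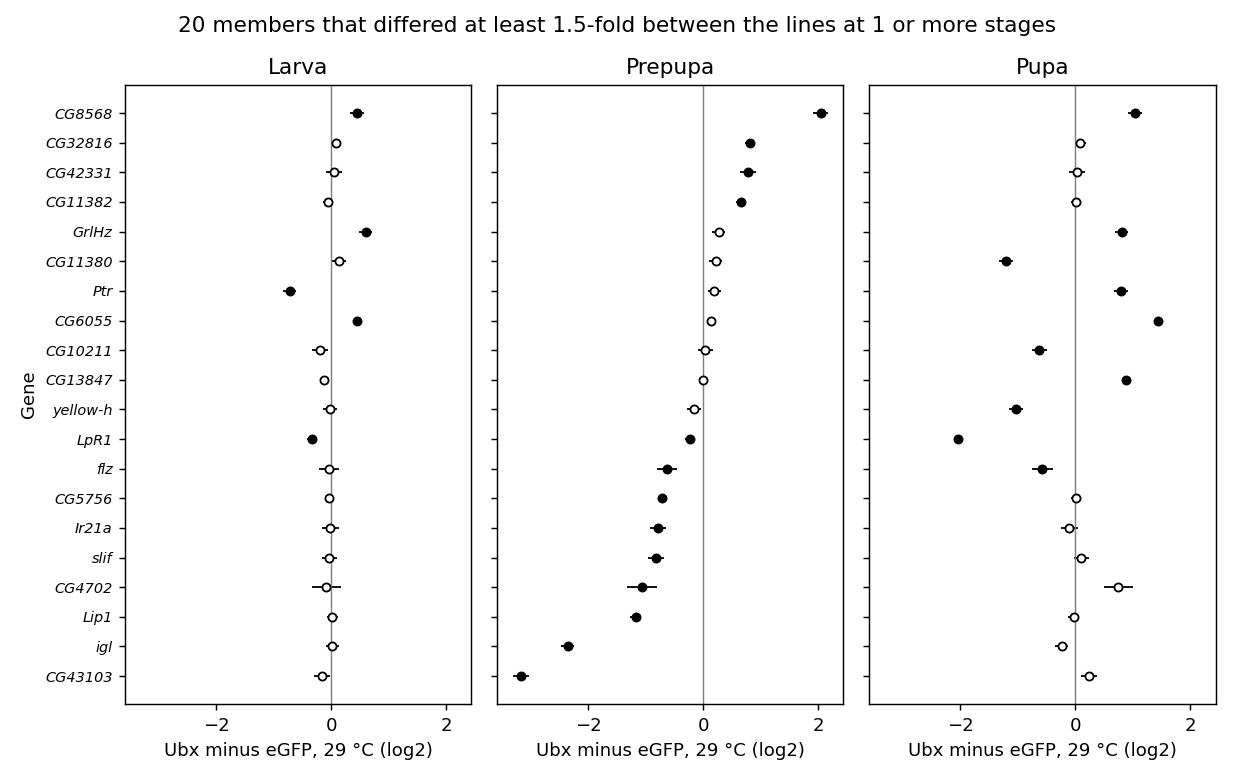
Ubx minus eGFP at 29 °C (log2, points, with SE bars) in larva, prepupa and pupa for the 20 members named for a change of at least 1.5-fold at 1 or more stages. Filled points had an adjusted p under 0.05 (limma). CG8568 is filled and positive at all 3 stages, whereas igl, Lip1 and CG43103 are filled in prepupa only.

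Whether the prepupal peak itself differed between the lines was tested by the line by stage contrasts at 29 °C. The prepupa minus larva difference was larger in Ubx for 16 members and smaller for 12 (3.08% and 3.37% of all probe sets). The prepupa minus pupa difference was larger for 14 and smaller for 21 (4.70% and 4.21%). These shares are of all probe sets, dim ones included, and were not taken among bright ones. The part of signal level in these counts was not tested. CG43103 and igl kept little of their peak in Ubx at 29 °C, their prepupa minus larva difference being smaller by 3.02 and 2.38 in Ubx. For CG43103 the peak was also smaller in Ubx at 19 °C, given with no test. Its prepupal arrays there read 6.36 to 7.21 in Ubx and 10.10 to 10.24 in eGFP, and its larval ones 3.88 to 4.07 and 4.16 to 4.33. The prepupal arrays of igl at 19 °C read 7.71 to 8.35 in Ubx and 8.72 to 8.95 in eGFP. LpR1 and CG11380 had a steeper fall into pupa in Ubx, by 1.80 and 1.41, and CG6055 and CG13847 a shallower one, by -1.31 and -0.89.

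The members lay on all major chromosome arms. Of 99 placed through the RefSeq table, 16 were on 2L, 25 on 2R, 17 on 3L, 23 on 3R, 1 on chromosome 4 and 17 on X, where 18.5%, 20.4%, 19.7%, 25%, 0.547% and 15.7% of the named genes lie. Members within 20 kb of another member numbered 18, in 9 pairs. These included the sulfotransferase genes St1 and St3, CG11380 and CG11382, and CG13631 and CG42331. How often other named genes lie that close was not counted, so clustering of the members was not tested. A further 12 probe sets represented 11 of the members, and 10 of these probe sets were likewise higher in prepupa than in both other stages in eGFP at 29 °C. The exceptions were the second probe sets of CG42331 and ftz-f1.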

How the data were processed

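Total RNA (2 µg per sample) was hybridised to 48 Affymetrix Drosophila Genome 2.0 arrays. The authors made the expression values with RMA, per the submitters' processing notes. The deposited values were taken as log2 from their range, 2.37 to 14.6, since neither log base nor RMA version is stated in the sources used here. Percentiles of the deposited values differed by at most 0.134 within the 8 arrays that share stage and temperature and by at least 0.243 between the 6 sets, so each such set appears to have been normalised alone.

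All 48 arrays were quantile-normalised together. The brightest probe sets then take fixed values, so differences among them cannot show. Of 18952 probe sets, 183 controls were left out. In the supplied annotation 13647 of the remaining 18769 had 1 symbol, 402 several and 4720 none. The brightest probe set, by its mean over all arrays, stood for a gene, and for 12 members this was one that may match several transcripts.

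One mean per group was fitted with limma 3.58.1 in R 4.3.3 (36 residual degrees of freedom, 5.04 prior). P-values are two-sided, with Benjamini-Hochberg adjustment over all 18769 probe sets, and a call needed an adjusted p under 0.05. Values are means ± SD of 4 arrays or differences with the SE of the model. The number of arrays limits the precision. The procedure was tested on simulated data. No contrast with the eGFP arrays at 19 °C was tested, although these arrays enter the model's residual variance; the fits on only the groups compared leave them out. The members, the gene lists and the tests were chosen with earlier results of these data known. Genes were named by rule: the 10 largest excesses, the 3 on each side of the limit, the members changed at least 1.5-fold between the lines (up to 8 each way in prepupa and 4 in larva and pupa), the 6 smallest excesses in eGFP at 29 °C, members of a gene list, and up to 4 further genes per list. Other genes were named after their values were seen. Listed genes were matched by symbol or, if that was no current symbol, by a unique synonym, so flz entered through lint. Chromosome arms and neighbours came from the RefSeq table (Release 6 plus ISO1 MT), in which 99 members were placed. Promoter and protein sequences were not used here. Alternatives were the deposited values, median-centred arrays, dim probe sets left out, averaged probe sets per gene, only the groups compared in the fit, the replicate number as a block, a 1.5-fold threshold and each array left out. Tables were handled in pandas 2.3.3 and numpy 2.4.6 under Python 3.11.15, and plots drawn in matplotlib 3.10.9.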

Additional observations from a re-analysis of the deposited data

Results flagged for a closer look

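For the 11 members shown array by array and the median of the 100 members, each in 12 groups of 4 arrays, 144 sets of 4 values were examined, and in 13 of them 1 array stood apart from the other 3 by more than Dixon's 95% critical value of 0.829. Chance flags about 1 in 20 groups. The test looks for 1 array apart from the other 3, so it does not see 2 arrays apart from 2. In prepupa these arrays were Ubx replicate 2 at 29 °C (11.98) and Ubx replicate 4 at 19 °C (12.83) for dyl, Ubx replicate 1 at 19 °C for CG43103 (6.36), eGFP replicate 3 at 29 °C for CG12164 (13.99) and eGFP replicate 1 at 29 °C for CG8568 (8.65). In pupa they were Ubx replicate 1 at 29 °C (3.70) and eGFP replicate 4 at 19 °C (3.39), both for dyl. In larva at 29 °C they were Ubx replicate 4 for ftz-f1 (4.39) and CG11380 (4.80), eGFP replicate 3 for CG12164 (3.59) and eGFP replicate 4 for igl (3.27). In larva at 19 °C they were Ubx replicate 1 for ect (4.24) and eGFP replicate 1 for dyl (3.25). For dyl in larva and pupa the values lie near the floor of the array. For CG12164 in prepupa the other 3 eGFP arrays at 29 °C all read 14.004, against 13.990 in replicate 3. The normalisation fixes values at this upper end, so that flag marks a very small step between tied arrays.

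The prepupal difference from another stage itself differed between the lines at 29 °C for these named members (limma's line by stage contrast, adjusted p under 0.05), given as Ubx minus eGFP. For prepupa minus larva, CG43103 had -3.02, igl -2.38, Lip1 -1.20, slif -0.79, Ir21a -0.77 and CG5756 -0.68. In the other direction, CG8568 had 1.59, Ptr 0.91, CG32816 0.73, CG42331 0.73 and CG11382 0.71. For prepupa minus pupa, the smaller differences in Ubx were those of CG43103 (-3.42), igl (-2.12), CG4702 (-1.81), CG6055 (-1.31), Lip1 (-1.15), slif (-0.93), CG13847 (-0.89), CG5756 (-0.72), Ir21a (-0.68), Ptr (-0.61) and GrlHz (-0.54). The larger ones were those of LpR1 (1.80), CG11380 (1.42), CG8568 (1.01), yellow-h (0.87), CG42331 (0.74), CG32816 (0.73), CG10211 (0.67) and CG11382 (0.65).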

How the results depend on the processing

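The counts of members higher in prepupa than in larva, pupa or both stayed at 100 in each of the 3 unused conditions, except that leaving out dim probe sets kept 99 members to count, and that in Ubx at 29 °C requiring 1.5-fold, fitting only the groups compared or leaving out an array gave 99 to 100. Choosing the genes again gave 90 of the 100 from the deposited values, 96 from median-centred arrays, 92 from averaged probe sets per gene and 98 to 100 without a replicate. For Ubx against eGFP at 29 °C, requiring 1.5-fold left 1 member higher and 1 lower in larva, 4 and 9 in prepupa and 7 and 4 in pupa. In larva the deposited values and the median-centred arrays each gave 3 higher, and leaving out dim probe sets gave 4 lower. In prepupa only the groups compared gave 12 lower. Leaving out an array gave 3 to 5 higher and 1 to 4 lower in larva, 13 to 16 and 14 to 21 in prepupa and 10 to 15 and 6 to 8 in pupa. In larva 3 were higher without Ubx replicate 1 or without eGFP replicate 1 or 3, while 4 were lower without Ubx replicate 4 or eGFP replicate 1 and 1 without eGFP replicate 3. The line by stage counts ranged over 14 to 17 larger and 9 to 18 smaller against larva, and over 12 to 16 and 16 to 21 against pupa. Of the values of named members under the alternatives, 3413 kept their direction and side of the threshold, 82 lost their call and 0 reversed. Apart from the smaller sample of the fits on fewer arrays, the cause of these changes was not tested. The replicate numbers did not pair the samples, since correlations of same-numbered deviations ran from -0.08 to 0.36 and no pair of groups had all of them over 0.1. With the replicate block, 19 members were lower in prepupa, the larger and smaller differences from larva numbered 17 and 13, and the other counts were those given. The array lacks detection calls, and signal over background limits what the larval and pupal levels can show.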
